A study of Mus musculus with 24 samples.

Results

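The livers of Ercc1 mutant mice kept on dietary restriction until 16 weeks of age were compared with those of mutants of the same age that ate freely. Ribosome profiling, which sequences the mRNA fragments covered by translating ribosomes (footprints), gave 8 of the series' 24 libraries to this comparison. They are the 4 libraries labelled Ercc1 d/- 30% DR 16wks and the 4 labelled Ercc1 d/- AL 16wks, chosen by their titles. Both groups were male F1 hybrids of C57BL6J and FVBN, and both carried the same germline genotype, 1 truncated (delta) and 1 null allele of Ercc1. Fed mutants ate 2.3 g a day on average, per the labels. Restricted mutants got 10% less from week 7, and 30% less, given as 1.6 g a day, from week 9 on, just before the dark phase, and no meal on the day of collection. Wild types of the same strain and age, 4 fed and 4 restricted by 30%, and 4 fed mutants at 7 weeks serve as comparisons. The labels give 3.0 g a day for fed and 2.1 g for restricted wild types, with the same steps at weeks 7 and 9. The other 4 libraries, fed wild types of 104 weeks, only entered the joint fit, the principal components and the range of Ercc1. Whole livers were pulverised, so all cell types were read together, and nothing in the labels says that a library pooled animals.

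ERCC1 forms a nuclease with XPF that cuts damaged DNA in nucleotide excision repair and in the repair of crosslinks. Mice with little of it grow slowly and show features of ageing in the liver early, and dietary restriction is known to lengthen their life. In mouse liver many genes differ between the sexes because pulses of growth hormone in males, and its steadier release in females, act through the transcription factor STAT5b. Cytochrome P450 enzymes, sulfotransferases and major urinary proteins are the best-known genes of this kind.

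The 8 libraries held 13423941 to 26075881 counts on genes. Ercc1, the targeted gene (chr7:19344067-19356524 in GRCm38.p6), had 4 to 15 counts in each of them, and 34 to 110 in the 12 wild-type libraries of 16 or 104 weeks. Albumin took 8.89 ± 0.70% of the counts in fed and 15.5 ± 1.59% in restricted mutants (SD, n = 4 each), and levels are given as CPM, counts scaled to a common library size after TMM normalisation, which sets a library's bulk of genes equal. The 19 hepatocyte markers summed to 155000 to 218000 CPM in fed and 218000 to 264000 CPM in restricted livers. Albumin is 1 of them, with means of 86550 CPM in fed and 143419 CPM in restricted livers. The list as a whole did not move 1 way, with a median log2 change of -0.01, 2 members up and 3 down. The 19 macrophage markers summed to 706 to 923 and 789 to 942 CPM, the 14 stellate cell markers to 555 to 734 and 674 to 906 CPM, and the 13 endothelial ones to 487 to 621 and 521 to 609 CPM. The 7 erythroid markers summed to 620.0 to 1770 CPM in fed and 655 to 1120 CPM in restricted mutants. All 5 of them that were tested had changes below 0, and 1, Alas2 of haem synthesis, fell (log2 -2.41), a call lost without fed replicate 1 or 2 or any 1 restricted library. Their part in the other results was not tested. T cell, neutrophil, pancreatic and fat cell markers stayed under 10 CPM in sum. The fat cell markers Retn and Adig and the acinar marker Prss1 had no count in the 8. In whole tissue, fewer cells of a type and less RNA per cell cannot be told apart. The deposited counts are footprints alone, so a change in mRNA and a change in translation per mRNA cannot be told apart either.

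Restriction raised footprints on 682 of 12211 tested genes in the mutants and lowered them on 738. These are 5.59% and 6.04% of the genes, by edgeR's quasi-likelihood test at a Benjamini-Hochberg adjusted p under 0.05, which is meant by rose and fell throughout. Of them 303 rose and 287 fell by more than 2-fold. Counts of list members below are to be read beside the 5.59% up and 6.04% down of all genes. The median change over all genes was 0.00 on the log2 scale. The first principal component, with 24.4% of the variance over all 24 libraries, put the restricted mutants at -48.3 to -36.6 and the fed ones at 10.1 to 20.7. Without restricted replicate 1, the library with the most effect, 934 genes passed. Scaling by total counts alone called 61% of the changed genes higher, against 48% with TMM.

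The largest rises and falls were taken among genes where 1 group averaged 5 CPM or more and no libraries overlapped. Among the 10 largest rises, Fmo6, of the flavin monooxygenase family (chr1:162916551-162937566), went from 0.951, 0.105, 0.766 and 0.0893 to 95.1, 80.7, 82 and 67.2 CPM (log2 7.48 ± 0.43, adjusted p = 7.15e-11), without overlap. The leptin receptor Lepr (chr4:101717137-101815352), which binds the satiety hormone, was read at 15.7, 9.44, 12.4 and 6.03 CPM in fed and at 823, 570.1, 293 and 503 CPM in restricted mutants (log2 5.66 ± 0.45, adjusted p = 4.44e-08). Restricted replicate 3 was the lowest of its group and still many times above any fed liver. Per-transcript forms of Lepr are not separated in gene counts.

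Sulfotransferases made up 4 of the 10 largest rises. Sult3a1 had 0.0634, 0, 0.219 and 0.0893 CPM in fed and 26, 13, 12.5 and 15.8 CPM in restricted mutants (log2 7.40 ± 1.01, adjusted p = 5.32e-05). Sult2a1, Sult2a2 and Sult2a5 stood at 11, 2 and 6 counts over the 4 fed libraries together, and at 634, 507 and 485 over the restricted ones. The ratio for Sult2a2 was 222 (95% counting interval 61.1 to 1840.0), which covers counting error only. These genes went from near the limit of detection to 5.40 to 7.52 CPM, and reads between such near-identical copies may be shared. Ppp1r3g, a subunit that directs a phosphatase to glycogen, rose too (log2 7.41 ± 1.70, adjusted p = 0.00718), with 3 counts in fed mutants and a ratio of 194 (95% counting interval 66.2 to 945). Restricted replicate 1 gave 29.1 CPM of it and the other three 0.17 to 1.80 CPM. Without that liver the change was 4.09 (adjusted p = 0.0429).

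Cyp2b10 and Cyp2b13, of the Cyp2b family of cytochrome P450 enzymes, were also among the 10. Cyp2b13 is on the female-biased list described below. Cyp2b10 stood at 0.761, 1.16, 2.74 and 0.357 CPM in fed and 75.7, 38.8, 45 and 42.2 CPM in restricted mutants, and Cyp2b13 went from 2.42 ± 1.37 to 103 ± 30.5 CPM (SD, n = 4 each). All 4 restricted livers were above all fed ones for both. Of the 10 largest falls, Elovl3, which lengthens fatty acids and is higher in males (chr19:46131897-46135694), led with 76, 121, 75 and 105 CPM in fed and 0.661, 1.18, 0.613 and 0.417 CPM in restricted mutants (log2 -7.00 ± 0.71, adjusted p = 1.99e-06). Hsd3b5, a male-type steroid enzyme, went from 119, 66.2, 91.3 and 71.4 to 1.65, 1.94, 2.89 and 2.22 CPM (log2 -5.30 ± 0.50, adjusted p = 6.21e-07). The groups were again apart, and the other 8 places belonged to major urinary protein genes.

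**Figure D1:**
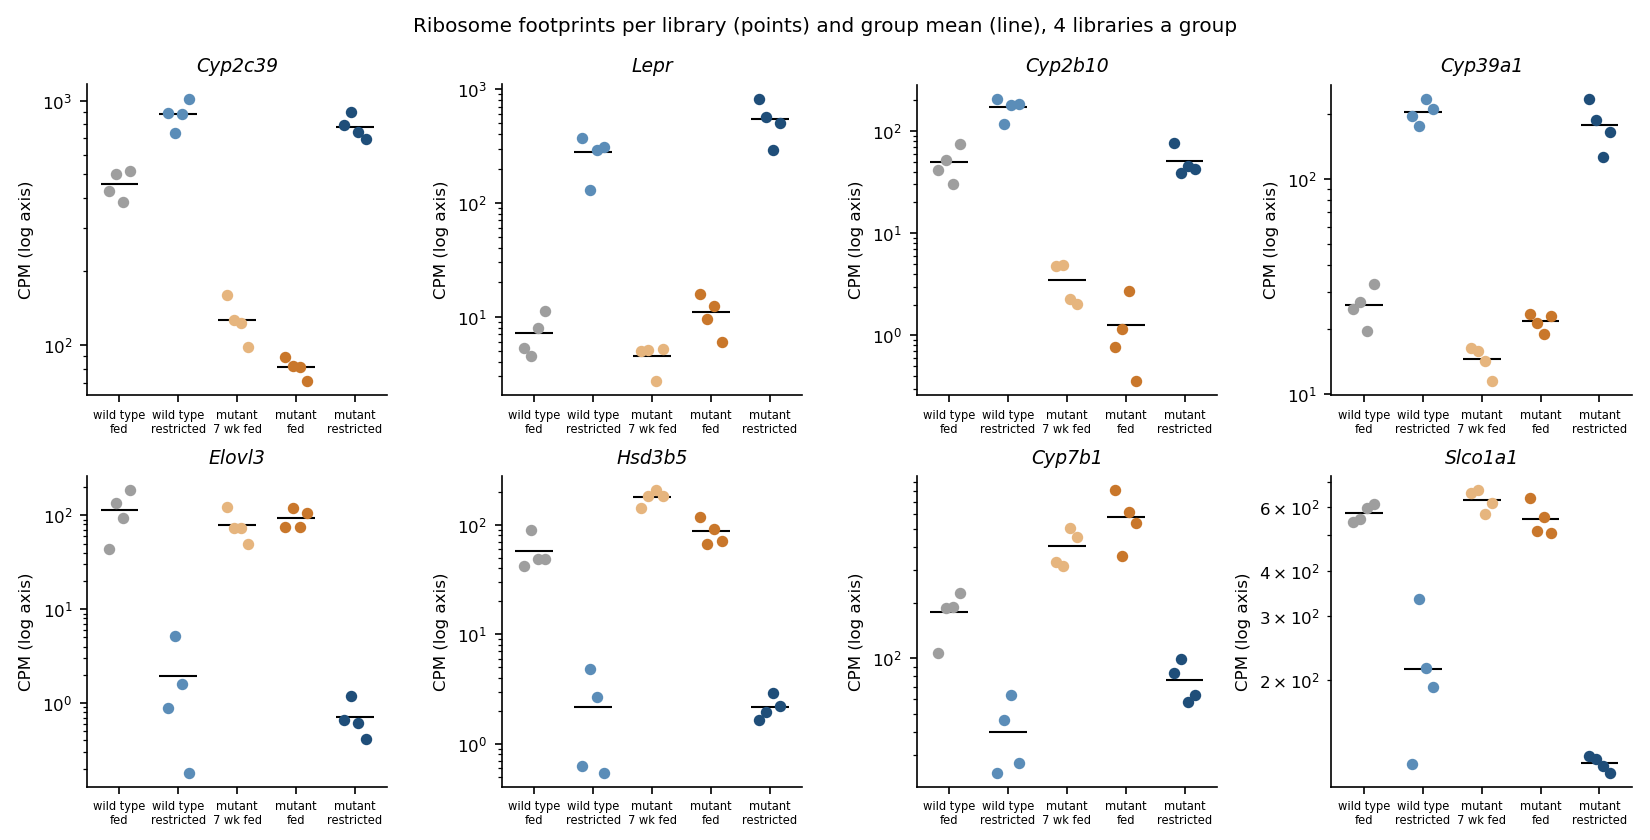
Footprint level of 8 genes on a log axis of CPM, with 1 point per library and a line at the mean of each group of 4 (wild types and mutants at 16 weeks, fed or restricted, and fed mutants at 7 weeks). Lepr has a mean of 10.9 CPM in fed and 547 CPM in restricted mutants, and Elovl3 94.2 and 0.718 CPM, and in no panel do fed and restricted mutants of 16 weeks overlap.

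Genes known to be higher in female than in male liver rose in these male mutants. Of 40 such genes tested 28 rose and 4 fell, with a median log2 change of 2.27, where 5.59% of all genes rose. This list and the male-biased one below were chosen with earlier results of these data known, so their counts are descriptive. In 30 of the 40 every restricted library was above every fed one, against 8.43% of all genes. Besides Lepr and the sulfotransferases, Cyp2c39 went from 89.4, 81.9, 81.4 and 71.2 to 792, 900.2, 746 and 694 CPM (log2 3.27 ± 0.20, adjusted p = 4.65e-11). Its groups were tight and far apart. Cyp2b9 went from 8.39 ± 3.83 to 261 ± 73.4 CPM (log2 4.96), and Gstt3, a glutathione transferase, from 4.62 ± 1.86 to 22.3 ± 4.87 CPM (log2 2.27). The 4 that fell were Lifr, the leukemia inhibitory factor receptor (log2 -1.12), Cyp2c69 (-1.09), Cyp2c40 (-1.08) and Ntrk2 (-0.86), of which Lifr, Cyp2c69 and Ntrk2 were named after their values were seen. The mean level of the list, relative to fed wild types at 0, was -0.77, -0.73, -0.64 and -0.89 in the fed and 1.89, 1.61, 1.81 and 1.83 in the restricted mutants. In restricted wild types 20 rose and 1 fell (5.44% and 6.71% of all genes), with a median of 0.94.

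Male-biased genes went the other way. Of 48 tested 43 fell and 5 did not pass, with a median log2 change of -2.80, where 6.04% of all genes fell. In 42 every restricted library was below every fed one, against 9.03% of all genes. The 22 major urinary protein genes, which encode pheromone carriers that male liver secretes in bulk, all fell, by a median of -4.26. Not all of the 22 are on the list of 48. The family lies in 1 cluster on chromosome 4 (chr4:59956804-62150841). Many of its members are nearly identical, so reads of those cannot be assigned to one copy with certainty. Summed, the 22 took 10.7, 7.86, 7.71 and 8.48% of all counts in fed mutants and 0.550, 0.768, 0.633 and 0.723% in restricted mutants. The lowest fed share was many times the highest restricted one. Mup14, the largest fall of the family, went from 1754 ± 534 to 17.8 ± 5.71 CPM (log2 -6.62 ± 0.69, adjusted p = 3.16e-06). In fed mutants at 7 weeks the family took 11.6 ± 1.36% of the counts.

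Without the major urinary proteins 24 of 29 male-biased genes fell. Cyp4a12a, which makes the vasoactive lipid 20-HETE, went from 287, 257, 246 and 313 to 63, 46.8, 42.6 and 31 CPM (log2 -2.59 ± 0.17, adjusted p = 9.34e-11), and its near-copy Cyp4a12b from 234 ± 28.7 to 46 ± 13.3 CPM. The terminal complement gene C6 went from 707, 534, 626 and 712 to 68.8, 120.0, 110.3 and 91.4 CPM (log2 -2.72 ± 0.20, adjusted p = 4.95e-10), and Nudt7, a peroxisomal coenzyme A hydrolase, from 474 ± 71 to 66.5 ± 14.1 CPM (log2 -2.83 ± 0.22). No library of one group reached the other for any of the 4. The 5 that did not pass were Bcl6, Igfals, Egfr, Mt1 and Gadd45g. Wild types on restriction had 40 of the 48 down, with a median of -2.93. None of the male-biased falls, nor the female-biased rises taken as counts, moved by more than 1.5 times when any 1 of the 8 libraries was left out (42 to 44 and 26 to 29).

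STAT5 binds the palindrome TTCNNNGAA, so promoters of some genes that moved are shown with it. It was searched in RefSeq promoter windows of 300 bases (250 before to 50 after a start; it reads the same on both strands). A window was found for 9655 of the 12211 genes, and 8.4% held the motif. Of 31 female-biased genes with a window 4 held it (12.9%), and of 35 male-biased ones 3 (8.57%). Among all genes with a window that rose it was 6.84%, and among those that fell 8.98%. The male-biased Bcl6 and Igfals held it but did not pass, nor did A1bg, another holder, and they are not shown. The stretches below run 5′ to 3′ on the gene's strand in GRCm38.p6, with the motif in capitals and 15 bases on each side. They come from the female-biased Sult3a1 (chr10:33857598-33857636, plus strand) and Slc22a26, an organic anion carrier (chr19:7802785-7802823, minus strand). The others are Fmo6, on neither list (chr1:162937431-162937469, minus strand), and, for a gene that fell, the male-biased complement gene C8a (chr4:104876603-104876641, minus strand).
Sult3a1: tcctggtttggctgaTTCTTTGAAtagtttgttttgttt
Slc22a26: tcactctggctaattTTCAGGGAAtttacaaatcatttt
Fmo6: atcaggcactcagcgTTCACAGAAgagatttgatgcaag
C8a: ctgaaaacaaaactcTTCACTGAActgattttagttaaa
The motif began 109, 141, 229 and 228 bases before the RefSeq start on which each window was placed. Only 5172 of 12295 windows compared were placed at the outermost RefSeq start of their gene. Among those shown only that of Slc22a26 was, and the motifs of Sult3a1 and Fmo6 fall inside the gene's span. Slc22a26 rose from 2.36 ± 0.652 to 10.5 ± 4.57 CPM (log2 2.13 ± 0.29, adjusted p = 1.57e-05) and C8a fell from 459 ± 92.2 to 69.3 ± 12.5 CPM (log2 -2.73 ± 0.24, adjusted p = 1.6e-08), both named for their promoters after their values were seen. A match describes letters in a window and shows no binding.

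Of 29 genes of the growth hormone, insulin and nutrient hormone axes 5 rose and 3 fell, with a median of 0.14. Ghr, the growth hormone receptor, went from 109, 109.8, 128 and 125 to 55.4, 49.9, 62.3 and 55.8 CPM (log2 -1.08 ± 0.17, adjusted p = 6.77e-05). Each restricted liver held about as little as the next and none reached a fed one. Igfbp2, a carrier of insulin-like growth factors that rises in fasting, went from 187 ± 57 to 402 ± 118 CPM (log2 1.10 ± 0.27, adjusted p = 0.00879), and Klb, the co-receptor of FGF21 and FGF15, from 25.5 ± 1.34 to 55.1 ± 9.07 CPM (log2 1.11 ± 0.17, adjusted p = 4.59e-05). Igf1 itself did not pass (log2 -0.03 ± 0.15, adjusted p = 0.946), with 263, 224, 249 and 263 CPM fed and 261, 276, 210.4 and 233 CPM restricted, which overlap. Fgf21, the liver's fasting hormone, did not pass either (log2 -0.40 ± 0.56, adjusted p = 0.725) at under 1 CPM in all 8. Without restricted replicate 1 or 2, or fed replicate 2 or 4, 3 members of this list rose. In wild types the rise of Igfbp2 was larger (log2 2.74 ± 0.28, adjusted p = 8.04e-07), a difference that passed (-1.64 ± 0.38, adjusted p = 0.0364).

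Drug metabolism was split. Of 41 genes 14 rose and 7 fell, with a median of 0.27, and 7 responded more strongly upward in mutants than in wild types, where 0.516% of all genes did. Next to the Cyp2b genes, Cyp2c38 went from 40.1, 43.5, 39.6 and 34.2 to 352, 426, 334 and 315 CPM (log2 3.18 ± 0.23, adjusted p = 4.95e-10). Those that fell were Aldh1a1, Cyp1a2, Ces1f and 4 glucuronosyltransferases of the Ugt2b family. Cyp1a2, which metabolises caffeine, went from 447, 417, 502 and 337 to 158, 203, 208 and 235 CPM (log2 -1.08 ± 0.19, adjusted p = 0.000249). All of its restricted values were below the fed ones. Cyp2b9 and Cyp2b13 are female-biased and were counted among those genes too.

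Of 25 genes of bile acid synthesis and transport 5 rose and 3 fell. Cyp39a1, which hydroxylates 24-hydroxycholesterol, went from 23.7, 21.4, 19.1 and 23.1 to 236, 187, 127 and 165 CPM (log2 3.04 ± 0.25, adjusted p = 7.75e-09), and Cyp7b1, the oxysterol hydroxylase of the alternative pathway, from 812, 356, 616 and 537 to 83.7, 99.4, 58.1 and 63.6 CPM (log2 -2.93 ± 0.34, adjusted p = 6.69e-06). The 2 uptake carriers of the Slco1a pair moved in opposite directions. Slco1a4 rose from 86.8 ± 21.5 to 349 ± 47 CPM (log2 2.01 ± 0.16, adjusted p = 1.87e-09) and Slco1a1 fell from 554 ± 57.9 to 118 ± 5.36 CPM (log2 -2.23 ± 0.19, adjusted p = 6.52e-09). Cyp7b1 and Slco1a1 are male-biased and were counted there too.

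**Figure D2:**
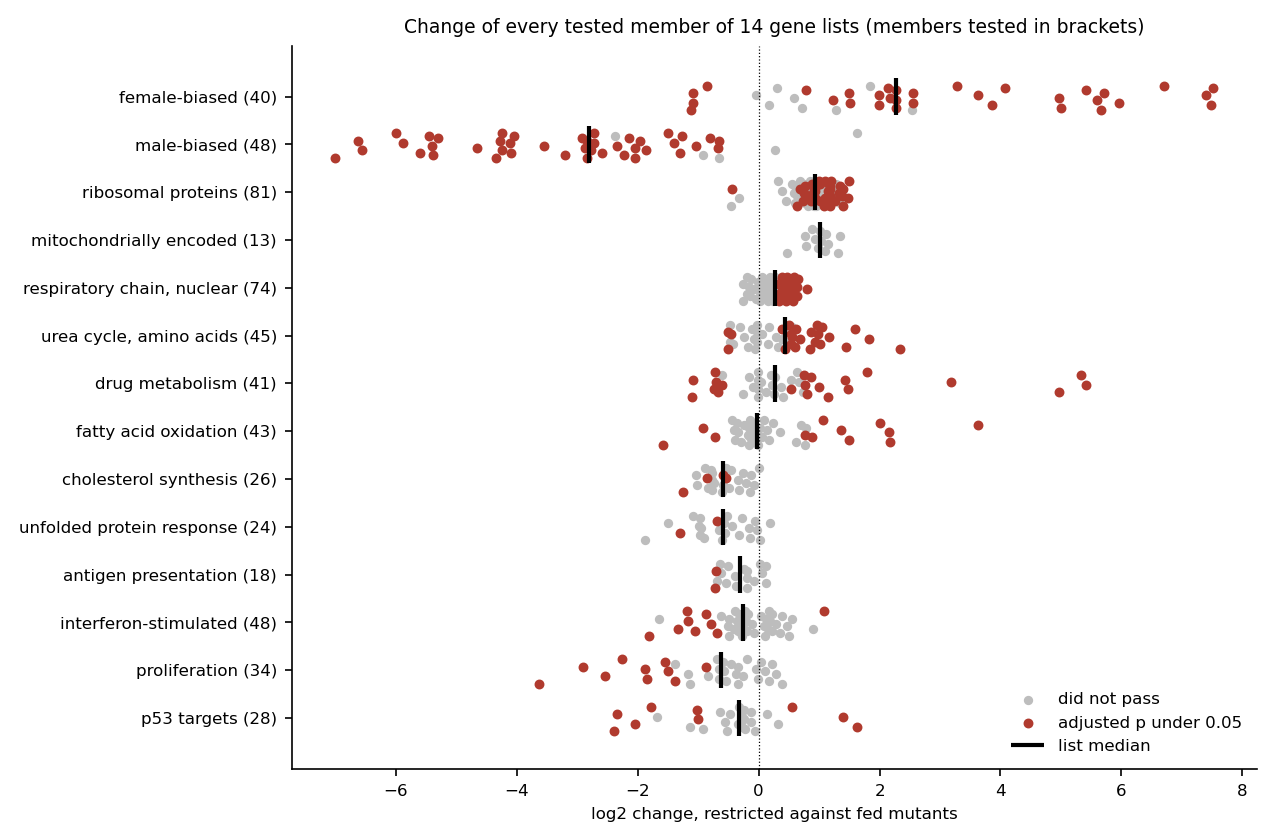
Log2 change of restricted against fed mutants for each tested member of 14 gene lists, red where the adjusted p was under 0.05, with a black bar at the list median and the number of members tested in brackets. The medians run from 2.27 for female-biased to -2.80 for male-biased genes, with 0.93 for ribosomal proteins and 1.02 for mitochondrially encoded genes, none of which passed.

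Ribosomal protein genes stood higher under restriction. Of 81 tested 37 rose and 1 fell, with a median log2 change of 0.93, where 5.59% of all genes rose. Fau, which encodes a ubiquitin-like protein fused to ribosomal protein S30, had 83.2, 81.8, 162 and 127 CPM in fed and 249.7, 228, 219.9 and 272 CPM in restricted mutants (log2 1.09 ± 0.22, adjusted p = 0.00129). Rpl35, of the large subunit, went from 53.2, 51.4, 129 and 92.1 to 169, 175, 172 and 231 CPM (log2 1.20 ± 0.28, adjusted p = 0.00601). For both the 2 lower fed livers were replicates 1 and 2, and the highest was replicate 3, below the restricted group. Rpl21 and Rps28 followed with log2 1.26 ± 0.26 and log2 1.18 ± 0.28. The 1 that fell, Rpl36al (log2 -0.43 ± 0.11, adjusted p = 0.0128), was named after its value was seen.

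The fed livers differed widely among themselves in these genes. The mean level of the list, relative to fed wild types at 0, was -0.46, -0.76, 0.68 and 0.19 in fed mutants and 1.07, 0.91, 0.74 and 1.04 in restricted mutants. Fed replicate 3 thus came close to the lowest restricted liver. Summed footprints were 5096, 4037, 10311 and 7547 CPM against 14065, 12483, 11136 and 13882 CPM. The count of rises depended on single libraries. It was 12, 14, 17 and 18 without fed replicate 2, fed replicate 1, restricted replicate 4 and restricted replicate 1, 24 without fed replicate 4 and 70 without fed replicate 3. The median stayed at 0.75 to 1.26. In wild types 63 of the 81 rose, with a median of 1.18.

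Messages of ribosomal proteins often begin with a run of pyrimidines (the 5′ TOP motif) through which nutrient signalling by mTORC1 controls their translation. A tract was taken as a C followed by 4 bases that are C or T, beginning within 5 bases of a RefSeq start, on the gene's strand. Of 61 ribosomal protein genes with a window 30 held one (49.2%), against 23.9% of all 9655. The starts of 5 genes that rose are shown, with the tract in capitals: Fau (chr19:6057932-6057961, plus strand), Rpl35 (chr2:39005117-39005146, minus strand), Rps15a (chr7:118116133-118116162, minus strand), Rps27 (chr3:90213634-90213663, minus strand) and Rpl18 (chr7:45718056-45718085, plus strand).
Fau: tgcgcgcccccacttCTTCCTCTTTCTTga
Rpl35: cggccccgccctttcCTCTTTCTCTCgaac
Rps15a: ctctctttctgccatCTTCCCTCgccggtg
Rps27: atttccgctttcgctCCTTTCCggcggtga
Rpl18: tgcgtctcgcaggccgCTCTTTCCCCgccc
The tract begins at the RefSeq start of the gene in the first 4. In Rpl18 it begins 1 base after an inner RefSeq start, since that gene's span opens at chr7:45715467. Rps15a, Rps27 and Rpl18, shown for their starts after their values were seen, had log2 changes of 1.19, 1.35 and 0.68 (adjusted p = 0.0161, 0.0339 and 0.00863). Rps27 lost the call in 9 of 15 other settings and Rps15a in 2. Ribosomal protein genes with and without a tract had medians of 0.92 and 0.93, and all other genes with one 0.02.

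Of 39 translation initiation and elongation factors 6 rose and 33 did not pass (median 0.28). They were Eif3i, Eif3h, Eif3e, Eif3m and Eif3f of initiation factor 3, and Eef1d of elongation factor 1. Eif3h went from 47.4, 38.4, 65.4 and 63.6 to 88.6, 90.0, 70.2 and 82.3 CPM (log2 0.62 ± 0.18, adjusted p = 0.0229), with a narrow gap between the groups. The count of rises was 0 without fed replicate 2, 1 without restricted replicate 1, 2 without restricted replicate 4 and 3 without restricted replicate 2.

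Some nuclear genes of the respiratory chain rose as well. Of 74 tested 29 rose and 45 did not pass, with a median of 0.28 and 64 above 0, where 5.59% of all genes rose. Cox7c, a subunit of cytochrome oxidase, went from 103, 94.6, 85.7 and 113 to 168, 147, 146 and 224 CPM (log2 0.79 ± 0.15, adjusted p = 0.000679). Atp5c1 and Atp5b, of the ATP synthase, went from 199 ± 3.4 to 312 ± 28.5 CPM and from 1158 ± 33 to 1736 ± 125 CPM, and Ndufc2, of complex I, from 53.7 ± 3.6 to 83.1 ± 10.9 CPM. For none of the 4 genes did the groups overlap. In wild types 6 rose, with a median of 0.14, and the difference between genotypes passed for no member. In mutants the count was 14 without restricted replicate 4, and without fed replicate 3 or 4 it was 18. The 13 genes of the mitochondrial genome had a median of 1.02 (0.36 without restricted replicate 1) and none passed by edgeR or by DESeq2 (4 at an unadjusted p under 0.05). The libraries spread widely, and the list stood at 0.60, -0.90, -0.02 and -0.50 in fed and 1.96, 0.80, -0.10 and -0.19 in restricted mutants.

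**Figure D3:**
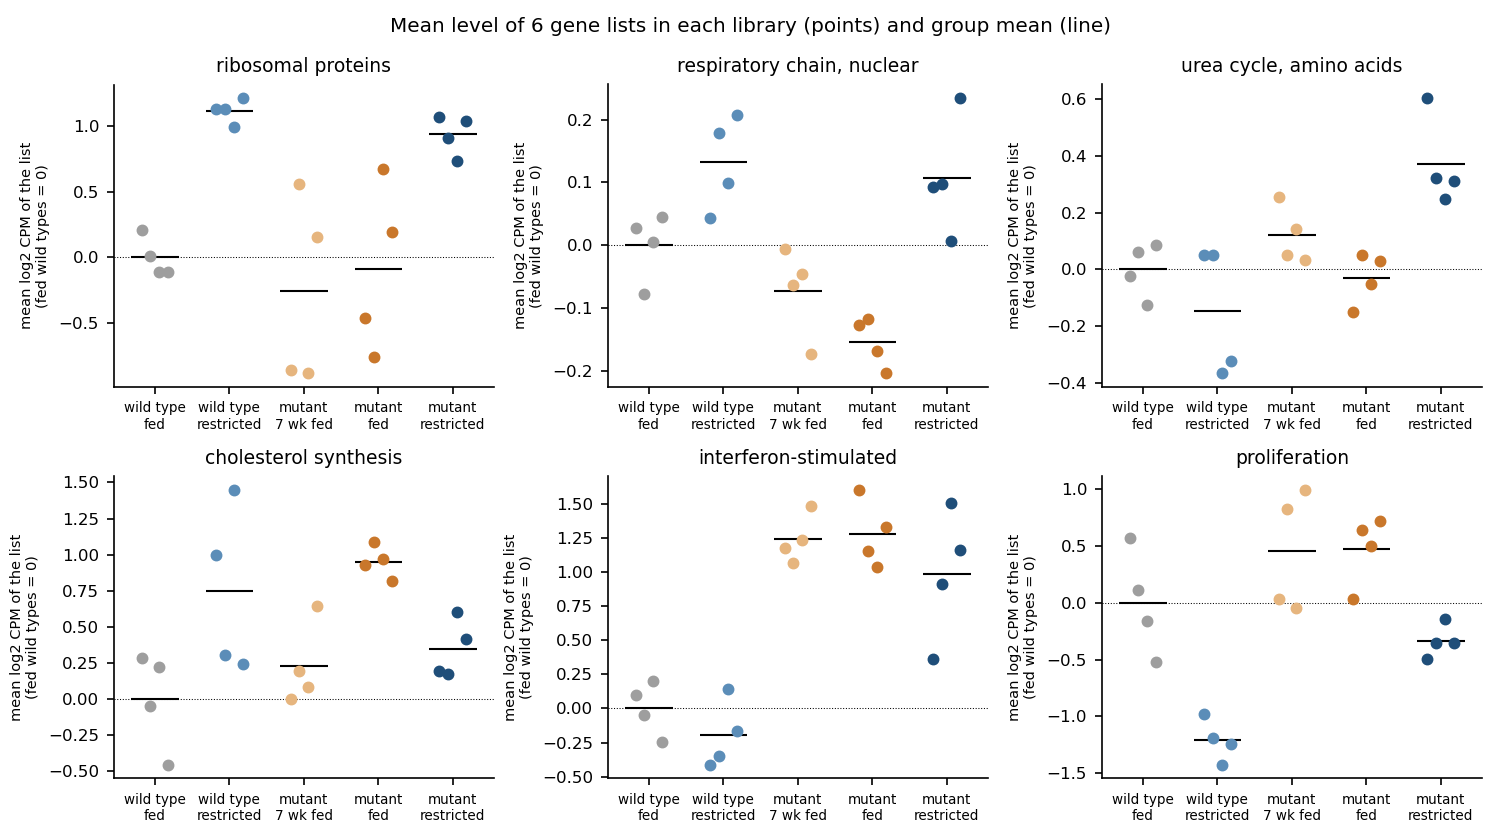
Mean log2 CPM of 6 gene lists in each library, relative to fed wild types at 0, with a line at each group's mean. Ribosomal proteins were at 0.74 to 1.07 in restricted mutants and -0.76 to 0.68 in fed ones, interferon-stimulated genes ranged from 0.36 to 1.51 in restricted mutants, and cholesterol synthesis was lower in restricted (0.17 to 0.60) than in fed mutants (0.82 to 1.09).

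Long genes are more often hit by DNA damage that blocks transcription, so the length of genes was examined. With 11973 protein-coding genes cut by genomic span into 5 equal groups, the longest group minus the shortest was -0.67 ± 0.11 in mean log2 CPM in fed and -0.57 ± 0.04 in restricted mutants (SD, n = 4 each). The difference of 0.10 did not pass an exact 2-sided permutation test over 70 assignments (p = 0.2). Fed replicate 3 was lowest at -0.82, and restricted replicates lay between -0.61 and -0.52. The median log2 change was -0.05 in the shortest and 0.05 in the longest group. In wild types the difference was -0.16 (exact p = 0.229).

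Many genes of the urea cycle and amino acid breakdown rose in the mutants. Of 45 tested 21 rose and 3 fell, with a median of 0.44, where 5.59% of all genes rose and 6.04% fell. In wild types 3 rose and 10 fell, with a median of -0.16. Got1, the aspartate aminotransferase of the cytosol, went from 414, 479, 417 and 431 to 3522, 2294, 1406 and 1615 CPM (log2 2.34 ± 0.31, adjusted p = 2.04e-05). Aass, which begins lysine breakdown, went from 485, 515, 472 and 505 to 1897, 1307, 1221 and 952 CPM (log2 1.44 ± 0.19, adjusted p = 9.32e-06). In both the fed livers lay close together and restricted replicate 1 was the highest. Arg1 and Ass1 of the urea cycle went from 1130.2 ± 93.4 to 2159 ± 387 CPM and from 2468 ± 303 to 4900.4 ± 721 CPM (log2 0.93 and 0.99). Sds and Hal, which break down serine and histidine, rose by 1.83 and 1.17. The 3 that fell were Otc, which makes citrulline (log2 -0.51), Agxt2 (-0.51) and Haao (-0.45), named after their values were seen. Without restricted replicate 1 the rises were 12. The falls were 0 without restricted replicate 1 or 2 or fed replicate 2, and 1 without fed replicate 1 or 3.

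The response of Aass (1.53 ± 0.27, adjusted p = 0.0026), Cth (1.76 ± 0.35, adjusted p = 0.0114) and Arg1 (0.84 ± 0.19, adjusted p = 0.0247) was higher in mutants than in wild types by the test of the difference itself. In wild types Aass went from 511 ± 136 to 480.0 ± 113 CPM and did not pass. Cth makes cysteine from cystathionine and is a target of ATF4, the factor of the amino acid response. Of 28 ATF4 targets 4 rose and 2 fell (median 0.00), and the falls were 0 or 1 without any single fed library or without restricted replicate 1 or 2. Vldlr, a lipoprotein receptor, went from 0.19, 0.422, 0.328 and 0.268 to 4.02, 3.07, 3.47 and 2.01 CPM (log2 3.35 ± 0.48, adjusted p = 3e-05), a rise from 23 to 281 counts. Psat1, of serine synthesis, went from 0.493 ± 0.13 to 1.91 ± 0.893 CPM (log2 1.92 ± 0.41, adjusted p = 0.00257), and Shmt2 fell (log2 -0.41 ± 0.13, adjusted p = 0.0333) but lost that call in 8 of 15 other settings. Genes of the periportal zone, which include several of the urea cycle, had 9 of 20 up and 1 down (4 up without restricted replicate 1). Of 24 pericentral genes 3 rose (1 without restricted replicate 1 or 4 or fed replicate 1) and 4 fell, among the latter Rgn and Gulo (log2 -1.23 and -1.03).

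Fat metabolism was mixed. Of 43 genes that burn fatty acids, make ketones or answer to PPAR alpha, 9 rose and 3 fell (median -0.03, a sign that turns with total-count scaling). Cyp4a10, a fatty acid hydroxylase and classic target of PPAR alpha, went from 585, 547, 332 and 465 to 2816, 1873, 2091 and 1968 CPM (log2 2.18 ± 0.32, adjusted p = 8.1e-05), and Cyp4a31 and Cyp4a32, whose reads it may share, by 2.16 and 2.00. Every restricted liver had more than any fed liver. Cyp4a10 is female-biased, as are Cyp4a14 and Acot3, which also rose, and all were counted among those genes too. Fabp1, which carries fatty acids in the cytosol, went from 1929.6, 1886, 1391 and 1303 to 536, 500.1, 591 and 539 CPM (log2 -1.59 ± 0.18, adjusted p = 8.3e-07).

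Of 28 genes of fatty acid and lipid synthesis 3 rose and 5 fell (median 0.16). Beside Elovl3, the delta-6 desaturase Fads2 went from 661, 633, 719 and 648 to 401, 379, 376 and 339 CPM (log2 -0.83 ± 0.16, adjusted p = 0.000771). Dgat1, which makes triglycerides, rose from 11.4 ± 3.03 to 20.8 ± 2.79 CPM (log2 0.86 ± 0.18, adjusted p = 0.00167). Scd2, a stearoyl desaturase, rose from 394, 301, 113 and 325 to 1018, 734, 764 and 1178 CPM (log2 1.70 ± 0.42, adjusted p = 0.0113), while in wild types it went from 2900.3 ± 719.5 to 1271 ± 335 CPM. The difference between genotypes passed for it (2.89 ± 0.59, adjusted p = 0.0205). The falls numbered 2 without restricted replicate 1 or 4 or fed replicate 3 or 4, and 3 without restricted replicate 2 or 3 or fed replicate 2.

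Few genes of cholesterol synthesis passed the test, though 25 of 26 members had a change below 0 and the median was -0.59. The 4 that fell were Acat2, Tm7sf2, Msmo1 and Sc5d. Msmo1, a sterol demethylase, went from 96.1, 90.6, 79.3 and 81.2 to 26.4, 32.8, 49.5 and 36.5 CPM (log2 -1.26 ± 0.38, adjusted p = 0.0343), without overlap. In wild types 8 of 26 rose and 1 fell, with a median of 0.73. The response of 4 members was lower in mutants than in wild types (0.287% of all genes), namely Msmo1 (-2.40 ± 0.54, adjusted p = 0.0339), Tm7sf2 (-1.05 ± 0.23, adjusted p = 0.0205), Cyp51 and Sqle, the last pair named after their values were seen. Which members passed depended on single libraries, since 1 or none fell without any one of fed replicates 1 to 4 or restricted replicates 1 or 2, and 2 without restricted replicate 4. With total-count scaling none fell, and with the 8 libraries fitted alone 11 did.

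Of 27 genes of glucose metabolism 6 rose and 21 did not pass (median 0.05). Eno1 and Pgk1 of glycolysis went from 617, 724, 568 and 589 to 968, 843, 1082 and 1143 CPM and from 315 ± 11.6 to 503 ± 83.1 CPM (log2 0.69 and 0.68). Gapdh footprints went from 10.3, 7.49, 7.33 and 10.7 to 21.3, 18.7, 22.2 and 17.4 CPM (log2 1.15 ± 0.19, adjusted p = 0.000145), and did not pass in wild types (log2 -0.16 ± 0.19, adjusted p = 0.643). The difference passed (1.31 ± 0.27, adjusted p = 0.012). Gapdh has many processed copies in the genome, and how reads that fit several places were counted is not given in the sources used here.

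NRF2 targets, which detoxify electrophiles, did not move one way. Of 24 tested 4 rose and 5 fell. Osgin1, an oxidative stress gene, went from 249, 186, 132 and 229.9 to 34.8, 44.7, 43.1 and 38.1 CPM (log2 -2.31 ± 0.29, adjusted p = 1.08e-05). Gstp1, a glutathione transferase that is higher in males, went from 1959, 1656, 1485 and 1825 to 498, 579, 607 and 586 CPM (log2 -1.61 ± 0.23, adjusted p = 3.71e-05). Both sets of values were clear of each other. Ugdh and Aox1 had -1.61 and -1.21 on the log2 scale. The 4 that rose, Fth1, Ftl1, Hmox1 and Abcc4, were named after their values were seen and include both ferritin chains.

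Interferon-stimulated genes are high in these mutants, and 8 of 48 fell under restriction while 1 rose (median -0.26). Iigp1, an interferon-inducible GTPase, went from 182, 157, 112 and 182 to 44.2, 53.3, 97.3 and 83.3 CPM (log2 -1.19 ± 0.24, adjusted p = 0.00144), and the immunoproteasome subunits Psmb8 and Psmb9 from 38.7 ± 2.56 to 21 ± 3.31 CPM and from 24.3 ± 3.65 to 10.9 ± 3.27 CPM. The riser was Usp18 (log2 1.09 ± 0.29, adjusted p = 0.0139), which restrains the pathway, with 18.8, 8.54, 11.1 and 11.9 CPM fed and 28.4, 35.6, 24.5 and 18.1 CPM restricted. Its groups overlapped by a little, and without restricted replicate 2 or fed replicate 2 it did not pass. The mean level of the list was 1.60, 1.15, 1.04 and 1.33 above fed wild types in fed mutants, and 0.36, 0.91, 1.51 and 1.16 in restricted mutants, which overlap. Without restricted replicate 1 the falls were 4, and without restricted replicate 2 or fed replicate 1, 3 or 4 they were 5. Of 18 genes of antigen presentation 2 fell, and 4 did without restricted replicate 3. B2m, the light chain of MHC class I, went from 2520.3, 2072, 2168 and 2216 to 1136, 1524, 1641 and 1232 CPM (log2 -0.70 ± 0.13, adjusted p = 0.000746). Tap2, the peptide transporter, fell too (log2 -0.72 ± 0.17, adjusted p = 0.00745).

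Of 19 macrophage markers 1 fell, where 6.04% of all genes did, and the list's median was -0.02. The marker was Folr2 (log2 -0.77 ± 0.23, adjusted p = 0.0286). Its call was lost in 7 of 15 other settings, among them those without restricted replicate 1 or 4 or fed replicate 1 or 3. Among sinusoidal endothelial markers Lyve1 and Pecam1 rose (log2 1.73 and 0.69), 2 of 13 (1 without restricted replicate 3 or fed replicate 3). Krt19, a bile duct keratin, passed (log2 3.30 ± 0.94, adjusted p = 0.0261) on restricted replicate 3 alone, which had 32.2 CPM when the other 7 livers had 0.491 to 2.03 CPM. Without that library its adjusted p was 0.436, and without fed replicate 2, 3 or 4 it missed the threshold too. The 8 bile duct markers summed to 71.6 CPM there and to 14.7 to 25.6 CPM in the others, and their part in other values of that library was not tested.

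Acute-phase genes had 2 up and 5 down of 29 (median -0.36, and 0.0084 without fed replicate 4). Saa4, the constitutive serum amyloid A, went from 69.2, 96.3, 111 and 159 to 11.2, 8.93, 16.5 and 11.3 CPM (log2 -3.18 ± 0.49, adjusted p = 0.000183), clear of overlap. The inducible Saa1 was read at 994, 89.9, 119 and 2459 CPM in fed and 20.0, 34.9, 37 and 24.7 CPM in restricted mutants (log2 -4.97 ± 1.39, adjusted p = 0.0255). Fed replicates 1 and 4 carried most of it, and without replicate 4 its adjusted p was 0.0865. Its call was lost in 7 of 15 other settings, with an adjusted p of up to 0.291. Falls in the list numbered 1 without restricted replicate 1 or 2 or fed replicate 4, 2 without restricted replicate 4 and 3 without restricted replicate 3. Without restricted replicate 1 or 2 or fed replicate 2 or 3, 1 rose. Of the 2 that rose, Cd14 depended on restricted replicate 2, at 55.9 CPM against 5.51 to 11.2 CPM in the other three.

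Targets of p53, the factor that answers DNA damage, had 3 up and 6 down of 28 (median -0.33). Bax, which starts cell death at mitochondria, went from 14.7, 8.54, 10.4 and 9.96 to 5.43, 6.1, 6.16 and 3.61 CPM (log2 -1.02 ± 0.20, adjusted p = 0.000818), and its activator Bbc3 from 1.97, 3.06, 2.74 and 2.77 to 0.614, 0.52, 0.34 and 0.625 CPM (log2 -2.34 ± 0.52, adjusted p = 0.00327), from 201 to 43 counts. All restricted values were lower than all fed values. Without fed replicate 1, 2 members fell, and without restricted replicate 1 or 2, 1 rose. The senescence marker Cdkn1a did not pass (log2 -0.32 ± 0.66, adjusted p = 0.827), with 96.2, 33.1, 53.8 and 30.7 CPM fed and 47.1, 91.1, 17.9 and 14.6 CPM restricted, nor did the stress cytokine Gdf15 (log2 -0.64 ± 0.53, adjusted p = 0.49). Of 13 genes of the senescence secretory list none passed by edgeR or DESeq2 (2 at an unadjusted p under 0.05). Of 22 nucleotide excision repair genes 1 rose, where 5.59% of all genes did. It was Ddb2 (log2 1.62), a damage sensor and p53 target named after its value was seen. Rises in this list were 0 without restricted replicate 1, and 2 without restricted replicate 4 or fed replicate 1.

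Some DNA replication genes fell. Of 34 proliferation genes 10 fell and 24 did not pass (median -0.62), where 6.04% of all genes fell. Among the 10 were 6 subunits of the MCM helicase that opens DNA for copying. Mcm5 went from 5.96, 11.4, 9.14 and 12.2 to 1.51, 1.32, 2.55 and 1.11 CPM (log2 -2.54 ± 0.39, adjusted p = 8.1e-05), and Mcm6 from 9.77, 13.9, 14.2 and 17.2 to 2.74, 3.59, 2.86 and 2.29 CPM (log2 -2.26 ± 0.39, adjusted p = 0.000362). Fed values were all above restricted values. Mcm3 and Mcm4 had log2 -1.84 ± 0.35 and log2 -1.50 ± 0.29. In wild types 15 fell and 2 rose. Mcm5 and Mcm6 are low in liver, with 151 and 251 counts over the 4 restricted libraries.

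Genes of the unfolded protein response had 2 down of 24 (median -0.59, and 22 below 0), where 6.04% of all genes fell. Herpud1, which helps clear misfolded proteins from the endoplasmic reticulum, went from 472, 276, 332 and 329 to 181, 197, 104 and 88.8 CPM (log2 -1.30 ± 0.30, adjusted p = 0.00552), and Sec61b, of its import channel, from 40.6 ± 6.12 to 25.3 ± 4.3 CPM (log2 -0.68 ± 0.17, adjusted p = 0.00778). With the 8 libraries fitted alone 7 members fell. Of 30 autophagy and lysosome genes 2 rose and 4 fell, where 5.59% of all genes rose and 6.04% fell. Without 1 library the falls ranged from 0 (fed replicate 4) through 1 (restricted replicate 4, fed replicate 1 or 2) and 2 (restricted replicate 1 or 3) to 3, and the rises were 4 without restricted replicate 3 and 1 without restricted replicate 2 or 4 or fed replicate 2 or 4. Ctsl, a lysosomal protease, went from 439.6, 376, 382 and 424 to 1712, 1401, 909 and 1169.9 CPM (log2 1.68 ± 0.19, adjusted p = 1.08e-06), with no overlap. Of 19 clock genes Ciart rose and Nr1d1 fell (adjusted p = 0.044 and 0.0195), near the 5.59% and 6.04% of all genes. Both calls were lost without restricted replicate 2 or fed replicate 4. Without restricted replicate 1 none rose and 3 fell, without restricted replicate 4 none fell, and without fed replicate 1 or 2 none rose. No heat shock gene of 23 and no immediate early gene of 19 passed by edgeR or DESeq2 (5 and 0 at an unadjusted p under 0.05). Without restricted replicate 3, 4 heat shock genes fell, without restricted replicate 4, 2, and without fed replicate 1, 1.

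The same restriction in wild types changed 1483 genes (12.1%), 664 up and 819 down (941 without restricted wild-type replicate 4). Changes ran the same way in both genotypes for 1240 of the 1420 genes called in mutants (87.3%), given without the same share over all genes. Both genotypes called 220 genes up and 314 down, which is 37.6% of the mutants' calls and 36% of the wild types' calls, and 9 were called in opposite directions. Of all genes, wild types called 5.44% up and 6.71% down. Across all 12211 genes, which are not independent replicates, the log2 changes of the genotypes had a correlation of 0.582. The mutant and wild-type groups share no library.

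The difference between the responses was tested itself, and 98 genes passed (0.803%), with 63 higher in mutants (0.516%) and 35 lower (0.287%). Unadjusted, 1552 had p under 0.05, and DESeq2 called 279. Leaving out 1 library gave 61 (fed wild-type replicate 3), 63 (fed mutant replicate 4), 64 (restricted mutant replicate 1), 65 (fed mutant replicate 1), 178 (restricted wild-type replicate 2) or 205 (restricted wild-type replicate 1). Of the 98, 24 rose and 21 fell in mutants alone, 10 rose and 24 fell in wild types alone, 9 passed in both with opposite signs and 10 with the same sign. Cd36 (chr5:17781690-17888959), a fatty acid uptake receptor, had the smallest adjusted p. In mutants it went from 90.2, 77.3, 63.8 and 83.2 to 192, 190.0, 220.2 and 209 CPM (log2 1.37 ± 0.25, adjusted p = 0.000705), with no overlap. In wild types it went from 139 ± 46.5 to 30.6 ± 5.51 CPM (log2 -2.18 ± 0.26, adjusted p = 4.36e-06), so the responses differed by 3.55 ± 0.36, adjusted p = 1.13e-05.

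Cytochrome P450 genes of the Cyp2c family, which oxidise drugs and arachidonic acid, took 5 of the 10 places named for the interaction. Cyp2c29 rose in mutants, from 131, 169, 144 and 132 to 374, 389, 358 and 491 CPM, and fell in wild types, from 1507 ± 475 to 741 ± 197 CPM (difference 2.51 ± 0.30, adjusted p = 3.44e-05). Cyp2c38 and Cyp2c39 rose in both genotypes and more in mutants (differences 2.22 ± 0.30, adjusted p = 0.000246 and 2.32 ± 0.26, adjusted p = 1.64e-05). Fed mutants started lower, at 39.4 and 81.0 CPM against 252 and 456 CPM in fed wild types, and restricted livers reached 357 and 783 against 490.5 and 882 CPM. Cyp2c40 and Cyp2c67 fell in mutants, to 377 and 379 CPM, and did not pass in wild types (differences -1.58 ± 0.25, adjusted p = 0.00165 and -1.50 ± 0.24, adjusted p = 0.00165). Members of this cluster resemble each other, and reads between them may be shared.

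Cyp2b10 showed the same order of starting levels, going from 1.25 ± 1.04 to 50.4 ± 17 CPM in mutants and from 49.4 ± 18.9 to 171 ± 38.8 CPM in wild types (difference 3.55 ± 0.57, adjusted p = 0.00239). Osgin1 fell in mutants and did not pass in wild types, which went from 61.4 ± 10.0 to 73.6 ± 22.8 CPM (difference -2.57 ± 0.40, adjusted p = 0.00165). Tmem176b, a membrane protein of antigen-presenting cells, went from 385 ± 51.3 to 215 ± 22.6 CPM in mutants and from 169 ± 24.1 to 217 ± 35.8 CPM in wild types (difference -1.20 ± 0.20, adjusted p = 0.00165). Fitm1, which buds fat droplets, fell in both and less in mutants (-1.30 against -4.01, difference 2.70 ± 0.39, adjusted p = 0.000564). Aldoc, an aldolase, rose in wild types from 4.86 ± 1.34 to 14.5 ± 3.14 CPM and not in mutants (log2 -0.19 ± 0.19, adjusted p = 0.565). The 10 named differences kept their direction and their call in each of the other settings.

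**Figure D4:**
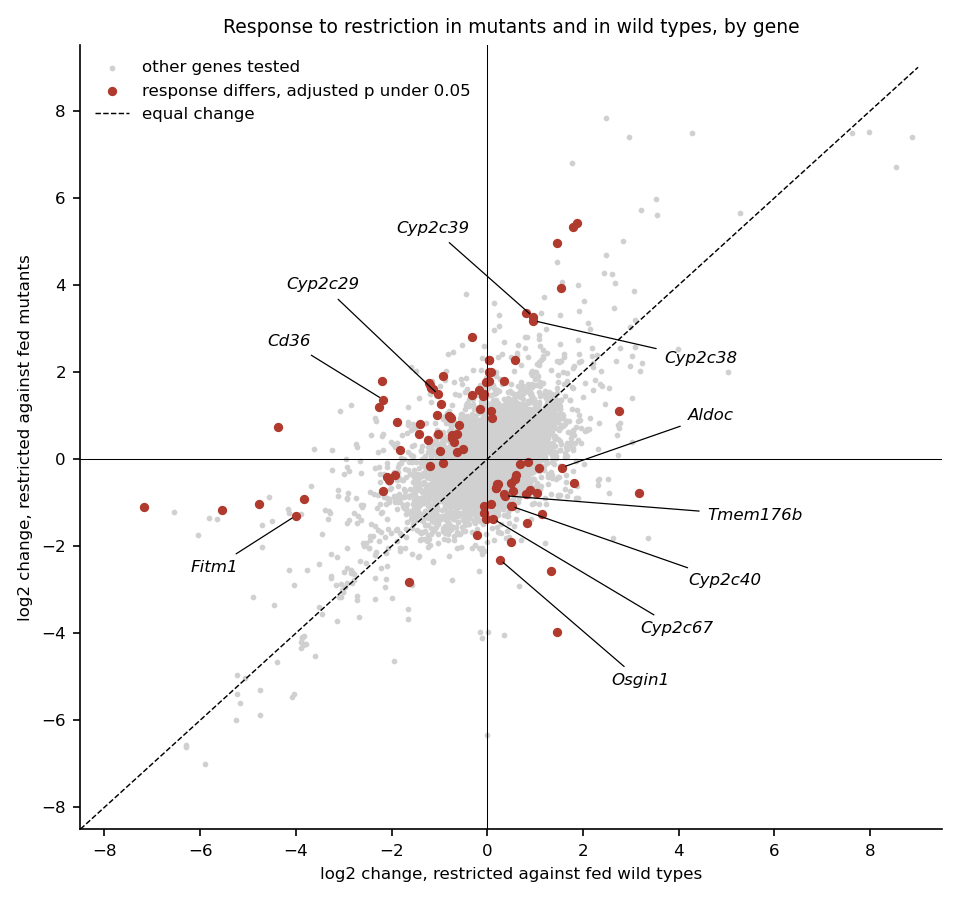
Log2 change under restriction in wild types (x axis) and in mutants (y axis) for each of 12211 genes, with the 98 whose responses differed in red, the 10 named ones labelled and a dashed line at equal change. Cd36 and Cyp2c29 lie at 1.37 and 1.48 in mutants and at -2.18 and -1.02 in wild types.

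Fed mutants at 7 weeks are the closest group to the state in which restriction began, since restriction started at that age. Restricted mutants differed from them at 2388 genes (19.6%), 1185 up (9.7%) and 1203 down (9.85%). The restricted libraries are shared with the main comparison, so the values are given side by side. Lepr stood at 4.5 ± 1.2 CPM (log2 6.92 ± 0.48, adjusted p = 3.61e-09) and Elovl3 at 79.3 ± 30.1 CPM (log2 -6.75 ± 0.70, adjusted p = 1.5e-06). Each was on the same side of the restricted group as in fed mutants of 16 weeks. Cyp2c29 stood at 437 ± 87.7 CPM, close to the restricted 403 CPM (log2 -0.11 ± 0.21, adjusted p = 0.748). Tmem176b, at 203 ± 6.6 CPM, did not pass either (log2 0.08 ± 0.14, adjusted p = 0.738). Msmo1 had 39.6 ± 8.08 CPM (log2 -0.13 ± 0.37, adjusted p = 0.855). With total counts alone as scaling 75.5% of the changed genes were higher, against 49.6% with TMM, and the median of all genes shifted by 0.19.

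A second deposited table counts P-sites, the codon position of the ribosome, per open reading frame. Of 18344 frames tested 862 were higher (4.7%) and 931 lower (5.08%) in restricted mutants, 9.77% in all, with 382 and 434 changed more than 2-fold, and 1182 changed without restricted replicate 1. The frames are named by transcript alone, so none is given a gene name.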

How the data were processed

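Ribosome footprints of mouse liver were measured in 24 libraries, 6 groups of 4. The deposited values are whole-number counts per gene made by the authors. The submitters' processing notes list cutadapt 3.4, Trimmomatic 0.39, Bowtie2 2.4.2, STAR 2.7.0f and 2.7.8a and featureCounts of Subread 1.6.4, and the build GRCm38.p6. A second deposited table holds P-site counts per open reading frame.

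From these counts, 12211 of 22429 genes passed edgeR's low-count filter. All 24 libraries were fitted together (TMM scaling, 18 residual degrees of freedom, biological variation 24.2%) with the robust quasi-likelihood test of edgeR 4.0.16 in R 4.3.3, and p-values were adjusted over all tested genes by Benjamini-Hochberg at 0.05. Log2 changes carry a standard error (±) and CPM an SD, with n = 4. Intervals cover counting error only. The labels give replicate numbers and do not say whether each library is a separate animal, so p-values measure the spread between libraries. Same-numbered fed and restricted mutants deviated with correlations of -0.19 to 0.07, so the numbers were not taken as pairs. The code was tested on simulated counts.

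Named genes were the 10 largest rises and falls (at least 5 CPM in the higher group, no overlap, no gene models), up to 4 members of each of 41 lists by adjusted p, the 5 smallest adjusted p of the interaction in each direction, and Ercc1, Igf1, Cdkn1a, Gdf15, Fgf21, Lepr and Alb. The members and lists were chosen with earlier results of these data known. Lists overlap, so some genes were counted in more than 1. Alternatives were other scalings, no filter, the compared groups alone, a replicate block, DESeq2 1.42.0, and each library left out. Gene names and positions, promoter and start sequences came from RefSeq (GRCm38.p6). mRNA libraries were not analysed here. Some genes that met the rule are not reported here.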

Additional observations from a re-analysis of the deposited data

Results flagged for a closer look

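Of 278 groups of 4 libraries checked, 13 held 1 library that stood far from the other three by Dixon's test at the 95% level, which chance does in about 1 group in 20. Restricted replicate 1 was high for Ppp1r3g (29.1 CPM against 0.170 to 1.80 CPM in the other three), Cyp2b10 (75.7 CPM against 38.8 to 45.0 CPM) and Cyp4a31 (1292 CPM against 864 to 929 CPM), and low for Rgn (521 CPM against 678 to 709.8 CPM). Restricted replicate 2 was high for the endotoxin receptor gene Cd14 (55.9 CPM against 5.51 to 11.2 CPM) and for Gdf15 (6.90 CPM against 1.43 to 2.15 CPM). Restricted replicate 3 was high for Krt19 (32.2 CPM against 1.42 to 2.03 CPM) and low for Rps27 (107 CPM against 123 to 127 CPM), and restricted replicate 4 was high for Rpl35 (231 CPM against 169 to 175 CPM). Fed replicate 1 was high for Mup13 (1302 CPM against 627 to 692 CPM), the interferon-inducible Gbp9 (21.1 CPM against 16.0 to 16.7 CPM) and Cyp2f2 (999.6 CPM against 859.6 to 883 CPM), and low for Hal (92.9 CPM against 144 to 149.8 CPM).

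The response of 25 named genes to restriction differed between mutants and wild types by the interaction test of edgeR (mutant minus wild-type log2 change, Benjamini-Hochberg adjusted p under 0.05). Cytochromes had differences of 2.51 for Cyp2c29, 2.22 for Cyp2c38, 2.32 for Cyp2c39, 3.51 for Cyp2b9, 3.55 for Cyp2b10 and 3.54 for Cyp2b13, and of -1.58 for Cyp2c40 and -1.50 for Cyp2c67. In lipid genes they were 3.55 for Cd36, 2.70 for Fitm1, 2.89 for Scd2, 2.55 for Vldlr, -2.40 for Msmo1 and -1.05 for Tm7sf2. In amino acid genes they were 1.53 for Aass, 0.84 for Arg1, 1.76 for Cth and 2.84 for Psat1. The others were 1.31 for Gapdh, -1.75 for Aldoc, 1.69 for Gstt3, -2.57 for Osgin1, -1.19 for Nudt7, -1.64 for Igfbp2 and -1.20 for Tmem176b.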

How the results depend on the processing

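Of 131 called genes named in the text, 98 kept their call in each of 15 other settings and 33 lost it in some. Genes changed in mutants numbered 934 to 1463, in wild types 941 to 1864, by interaction 61 to 205, against 7 weeks 1722 to 2294 and frames 1182 to 1812 with 1 library left out, and the length trend was 0.05 to 0.13. With the compared groups alone wild types had 658 changed genes. The replicate numbers do not pair the mutant libraries (1 of 4 fed livers correlated best with its own number). In wild types 3 of 4 did, with correlations of 0.179, 0.0731 and 0.128 for replicates 1, 3 and 4, and 0.0152 for replicate 2. The numbers were not taken as pairs. With a replicate block 963 genes changed in mutants, 731 in wild types and 59 by interaction, for which DESeq2 gave 279. Rises among the nuclear respiratory chain genes numbered 7 with the replicate block. With total counts alone the share of changed genes that were higher was 61% in mutants (48% with TMM), 58.2% in wild types (44.8%) and 75.5% against 7 weeks (49.6%). Igf1, which did not pass, turned to 0.0433 with total counts and ranged from -0.0809 to 0.0429 (without restricted replicate 3) with 1 library left out. Cdkn1a ranged from -0.9996 to 0.122 (without fed replicate 1). The cause was not tested. Medians of 25 of 37 lists kept their sign in every setting run, and those of 12 did not. Genes with few counts, such as the sulfotransferases in fed livers, have only coarse folds.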

Other observations

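The restricted livers fell into pairs. Their deviations from the group mean across genes had correlations of -0.46 to -0.56 between replicates 1 or 2 and replicates 3 or 4, of 0.00 between 1 and 2 and of 0.07 between 3 and 4. Deviations of 4 libraries from their own mean are not independent and tend below 0. Pck1, the gluconeogenic enzyme of fasting, stood at 1679, 1527, 258 and 357 CPM in restricted replicates 1 to 4, and Fasn, which makes fatty acids after meals, at 456, 372, 1606 and 1552 CPM. The fed livers had 2719.5, 1871, 1746 and 3149.7 CPM of Pck1 and 458, 929.9, 857 and 644 CPM of Fasn. Both genes were chosen after their values were seen. The labels give no hour of collection for single animals, and its part in these values was not tested.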
